A study of Homo sapiens with 6 samples.

Results

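The aminoacyl-tRNA synthetases described here are those for amino acids other than tyrosine, histidine, asparagine and aspartate, together with the proteins that hold the multisynthetase complex together. The members were taken by name from the deposited count table through their Ensembl identifiers: 17 genes of cytosolic synthetases, 3 genes of scaffold proteins (AIMP1, AIMP2 and EEF1E1) and 13 genes of mitochondrial synthetases. All 33 were found among the 63086 genes of the table, and all 33 passed the filter on low counts, as did 14905 genes in all. The rule that took them uses names and no measured value, but the lists were drawn up with earlier results of these data known.

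The study grew HEK293T, a long-established cell line from human embryonic kidney, without and with queuine, the base that cells take up to make queuosine in tRNAs, namely those that read the codons of the 4 amino acids just named. The depleted group (0Q) was grown in DMEM with dialyzed fetal bovine serum, and the supplemented group (100Q) was derived from 0Q cells by adding queuine, so both groups share the depleted background. The sample characteristics give the dose as 100 nM and the treatment protocol as 1 µM for 24 hours, and the dose is not settled here. Each group had 3 libraries of messenger RNA made by MSR-seq, a multiplexed library method, which the labels do not describe as separate cultures. P-values therefore measure the spread between libraries, and that may be technical. Values per library are given in the order of the replicate numbers.

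Synthetases attach each amino acid to its tRNA and so set the meaning of the codons. They fall into class I and class II, which have unrelated catalytic domains. In animal cells several cytosolic synthetases (those for glutamate and proline in 1 chain, EPRS1, and those for isoleucine, leucine, methionine, glutamine, arginine and lysine) join AIMP1, AIMP2 and EEF1E1 (also called AIMP3) in a large complex, while others are free. Mitochondria use a second set of nuclear-encoded enzymes; KARS1 and GARS1 serve both compartments from 1 gene, and there is no mitochondrial glutamine enzyme, since glutaminyl-tRNA is made there by an amidotransferase. Many cytosolic synthetase genes are textbook targets of ATF4, the transcription factor of the amino acid response. None of the tRNAs charged by these members carries queuosine.

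Libraries held 4023956 to 11398835 estimated counts, with the shallowest and the deepest both in 100Q. The neuronal filament genes NEFL, NEFM and INA and the genes EYA1, PAX2 and LHX1, listed as marks of this line, were all detected, and their summed level was 355.4 to 389.9 CPM in 0Q and 300.8 to 351.8 CPM in 100Q, without overlap. Of these 6 genes, 2 (INA and EYA1) had an unadjusted p under 0.05 in edgeR, beside 4.72% of all genes tested. Both had lower values in 100Q, and 0 of the 6 passed after adjustment. Taken singly, the groups did not overlap for these 2 genes (33.3%), beside 10.6% of all genes tested. They did overlap for NEFL and NEFM, the genes of highest level in the sum, and for PAX2 and LHX1. PAX2 and LHX1, at only 1.72 to 8.54 CPM, had log2 fold changes of 0.47 ± 0.46 and 0.56 ± 0.44 (SE). These were above 0, and those of the other 4 genes were below. The part of these genes in the values below was not tested. Of 10 markers of blood, epithelial, fibroblast, endothelial and liver cells, PTPRC, CD3E, LYZ, HBB and KRT5 had 0 counts in every library, CD79A, COL1A2, PECAM1 and ALB stayed under 1 CPM, and COL1A1 was at 25.5 to 31.6 CPM. On the first principal component, with 32.6% of the variance, 100Q replicate 2 stood away from the other libraries. CPM here are counts relative to the effective library size, that is, the total after TMM scaling.

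No member passed the test between 100Q and 0Q. Over all 14905 genes edgeR's quasi-likelihood test called 2, or 0.0134%, at a Benjamini-Hochberg adjusted p under 0.05, and 0 of 33 members were among them (edgeR adjusted p from 0.987 to 0.999). DESeq2, which called 0.0738% of genes, and limma-voom, which called 0.00671%, also called 0 members. At an unadjusted p under 0.05 there was 1 member, SARS1, the cytosolic serine enzyme, with a lower value in 100Q, against 4.72% of all genes tested and 2.23% with lower values. The median log2 fold change, given as 100Q minus 0Q throughout, was 0.0018 for cytosolic synthetases (9 above 0 and 8 below), -0.063 for the scaffold proteins (0 above, 3 below) and 0.046 for mitochondrial synthetases (10 above, 3 below), beside a median of -0.0027 over all genes tested.

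The intervals around these values were narrow. The 95% interval of the fold change lay inside 1.5-fold in both directions for 31 of 33 members (93.9%), the exceptions being WARS2 and PARS2, and inside 2-fold for all 33. For all genes tested the share inside 1.5-fold was 58.2%, and for the 9450 genes within the members' own range of mean level (14.4 to 537 CPM) it was 87.5%. The median absolute log2 fold change was 0.066 over members and 0.091 over those 9450 genes. Summed over their genes, cytosolic synthetases took 0.368%, 0.354% and 0.375% of counts in 0Q and 0.364%, 0.368% and 0.372% in 100Q, so the groups overlapped. Mitochondrial synthetases took 0.0792%, 0.0784% and 0.0778% in 0Q and 0.0802%, 0.0799% and 0.0802% in 100Q, a span of 0.0778% to 0.0802% over the 6 libraries, with those of 100Q above those of 0Q. On the TMM scale the same sums overlapped, at 802.6, 792.3 and 781.3 CPM in 0Q and 806.4, 807.1 and 784.6 CPM in 100Q.

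**Figure D1:**
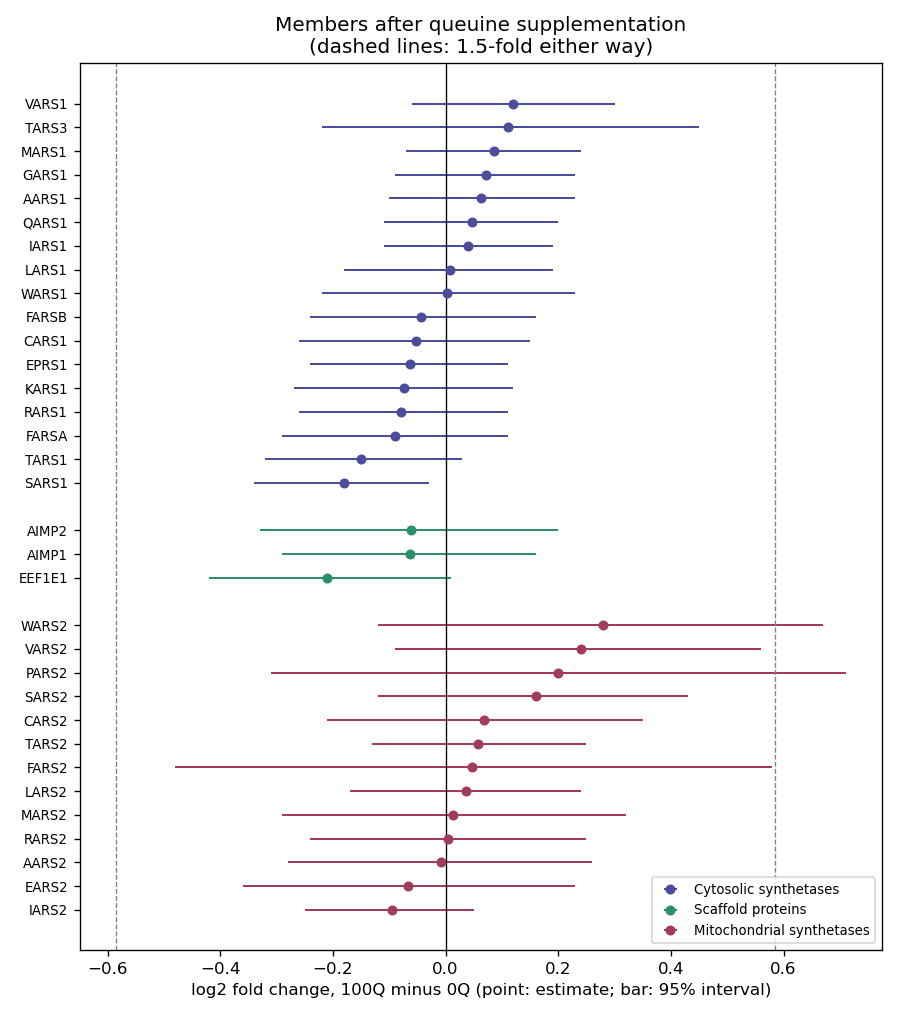
Log2 fold change of each member (x axis, 100Q minus 0Q) with its 95% interval from edgeR, by gene and coloured by list; dashed lines mark 1.5-fold either way. Intervals of 31 of 33 members lie inside the dashed lines, WARS2 and PARS2 reach past the upper one, and that of SARS1 lies below 0.

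SARS1 (chromosome 1, 109213918 to 109238182, plus strand, 11 exons in the canonical transcript; all coordinates hg38, GENCODE release 44) charges serine and is free of the multisynthetase complex. Its level was 303, 295 and 287 CPM in 0Q and 250, 277 and 253 CPM in 100Q. All 3 libraries of 100Q lay below those of 0Q. The log2 fold change was -0.18 ± 0.075 (SE; 95% interval -0.34 to -0.03), or -12.0%, with an unadjusted p of 0.0261 and an adjusted p of 0.987 in edgeR. Under the alternatives its log2 fold change ran from -0.23 to -0.16 and its unadjusted p from 0.00528 to 0.0864 (edgeR, DESeq2 and limma-voom), and it was over 0.05 when 0Q replicate 1 (0.0694), 0Q replicate 2 (0.0639), 100Q replicate 1 (0.0864) or 100Q replicate 3 (0.0730) was left out.

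CPM of the groups did not overlap for 5 of 33 members (15.2%), beside 10.6% of all genes tested. These were SARS1, EEF1E1 and IARS2 with lower values in 100Q, and MARS1 and TARS2 with higher ones; over all genes the shares were 5.2% lower and 5.39% higher. MARS1, the methionine enzyme that also charges initiator tRNA, was at 277, 252 and 269 CPM in 0Q and 282, 284 and 281 CPM in 100Q, so that only 4 to 7 CPM separated 0Q replicate 1 from the libraries of 100Q. TARS2, the mitochondrial threonine enzyme, was at 93.5, 85.0 and 93.0 CPM and then 94.7, 94.2 and 93.8 CPM. Neither gene passed in edgeR (adjusted p = 0.990 for MARS1 and adjusted p = 0.991 for TARS2).

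Enzymes of the multisynthetase complex spread to both sides of 0. Their 7 log2 fold changes ran from -0.08 to 0.09, with a median of 0.0077, 4 above 0 and 3 below, and SE of 0.071 to 0.092. EPRS1, whose single chain charges glutamate and proline, had -0.064, IARS1 0.039, LARS1 0.0077, MARS1 0.086, QARS1 0.047 and RARS1 -0.079. KARS1, the lysine enzyme of cytosol and mitochondria (chromosome 16, 75627474 to 75648643, minus strand), was at 215, 189 and 179 CPM in 0Q and 196, 191 and 167 CPM in 100Q. The groups overlapped, and its log2 fold change was -0.074 (95% interval -0.27 to 0.12; edgeR adjusted p = 0.991). IARS1, which charges isoleucine, had the highest CPM of all members, 530 ± 23.9 in 0Q and 544 ± 18.7 in 100Q (SD, n = 3 per group).

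The free cytosolic synthetases covered a wider range, from -0.18 to 0.12 over 10 genes, with a median of -0.021 and 5 on each side of 0. VARS1, the valine enzyme that binds elongation factor 1 (chromosome 6, 31777518 to 31795752, minus strand), had the largest value. It was at 155, 140 and 155 CPM in 0Q and 152, 163 and 173 CPM in 100Q, where 100Q replicate 1 lay within the range of the depleted libraries. For VARS1 the log2 fold change was 0.12 ± 0.085 (SE; edgeR adjusted p = 0.987), and 0.069 to 0.17 as each library was left out. GARS1, the glycine enzyme of both compartments (chromosome 7, 30580533 to 30634033, plus strand), was at 270, 248 and 268 CPM in 0Q and 265, 282 and 278 CPM in 100Q. These groups overlapped as well, with a log2 fold change of 0.071 (95% interval -0.09 to 0.23; edgeR adjusted p = 0.991).

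Threonine has 2 cytosolic-type genes here. TARS1, the main enzyme, was at 236, 227 and 245 CPM in 0Q and 204, 234 and 203 CPM in 100Q, with 100Q replicate 2 inside the range of 0Q. Its log2 fold change was -0.15 (95% interval -0.32 to 0.03; edgeR adjusted p = 0.987). Its relative TARS3 (chromosome 15, 101653596 to 101724473, minus strand) was at 33.1, 24.2 and 30.5 CPM in 0Q and 35.4, 32.1 and 27.9 CPM in 100Q. Its log2 fold change was 0.11 (95% interval -0.22 to 0.45; edgeR adjusted p = 0.991), and -0.01 without 0Q replicate 2, the library with its lowest level. The other free enzymes were close to 0: AARS1 (alanine) had 0.063, CARS1 (cysteine) -0.052, WARS1 (tryptophan, induced by interferon in many cells) 0.0018, and the alpha and beta chains of the phenylalanine enzyme, FARSA and FARSB, had -0.089 and -0.044.

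All 3 scaffold genes had values below 0, with EEF1E1 the lowest of any member. EEF1E1 (chromosome 6, 8073360 to 8102559, minus strand), which binds the methionine enzyme in the complex, was at 65.6, 67.2 and 70.1 CPM in 0Q and 58.3, 60.3 and 57.3 CPM in 100Q. The groups did not overlap, and the log2 fold change was -0.21 ± 0.10 (SE; 95% interval -0.42 to 0.01; edgeR unadjusted p of 0.0554, adjusted p = 0.987). After correcting each library for its dependence on GC content and length it was -0.12, with an unadjusted p of 0.219 in edgeR, in a range from 0.0509 to 0.219 over the alternatives. AIMP1, the precursor of the cytokine EMAPII, was at 70.8, 84.7 and 90.5 CPM in 0Q and 76.4, 80.9 and 78.4 CPM in 100Q. AIMP2, the central scaffold, was at 42.2, 51.4 and 42.9 CPM and then 42.0, 44.7 and 44.2 CPM. In both genes the libraries of 100Q lay almost wholly within the wider range of 0Q, with log2 fold changes of -0.063 and -0.062 (edgeR adjusted p = 0.991 for both). The median of the 3 genes was -0.16, -0.040 and -0.10 when replicates 1, 2 and 3 of 0Q were left out in turn.

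**Figure D2:**
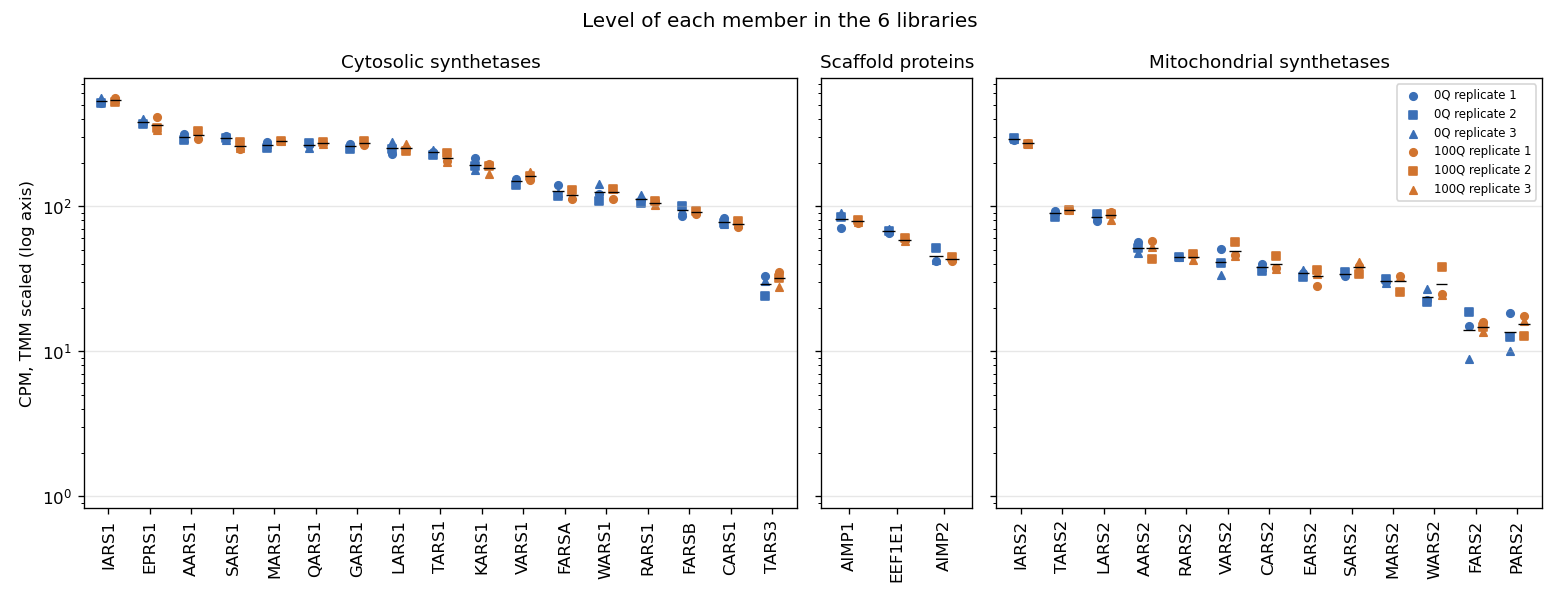
CPM of each member (log axis) in the 3 libraries of 0Q (blue) and the 3 of 100Q (orange), in panels for cytosolic synthetases, scaffold proteins and mitochondrial synthetases; the marker shape gives the replicate and the short line the group mean. EEF1E1, SARS1 and IARS2 show 100Q below 0Q without overlap, and the genes of lowest level, FARS2 and PARS2, show the widest scatter.

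Mitochondrial synthetases lay mostly above 0, and most had lower counts and wider intervals than the cytosolic ones. WARS2, the tryptophan enzyme (chromosome 1, 119031216 to 119140654, minus strand), had the largest value of any member. It was at 22.5, 21.8 and 26.9 CPM in 0Q and 24.8, 38.2 and 24.6 CPM in 100Q, so 1 library, 100Q replicate 2, stood above the rest and the others overlapped. The log2 fold change of WARS2 was 0.28 ± 0.18 (SE; edgeR adjusted p = 0.987), and 0.058 with that library left out. VARS2, the valine enzyme, had 0.24 ± 0.15 (edgeR adjusted p = 0.987) at 50.4, 40.5 and 33.5 CPM in 0Q and 45.8, 56.8 and 45.3 CPM in 100Q; this was 0.40 or 0.11 when 0Q replicate 1 or 3 was left out, and 0.13 when 100Q replicate 2 was. PARS2, the proline enzyme (chromosome 1, 54756898 to 54764523, minus strand), was at 18.3, 12.5 and 10.0 CPM in 0Q and 17.5, 12.8 and 16.1 CPM in 100Q. Its log2 fold change was 0.20 (95% interval -0.31 to 0.71; edgeR adjusted p = 0.991), and ran from 0.023, when 0Q replicate 3 was left out, to 0.47, when 0Q replicate 1 was.

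IARS2, the isoleucine enzyme (chromosome 1, 220094132 to 220148041, plus strand), had the highest level of the mitochondrial members. It was at 285, 294 and 293 CPM in 0Q and 275, 270 and 271 CPM in 100Q. The groups did not overlap, yet the difference was small: a log2 fold change of -0.096 ± 0.07 (SE; 95% interval -0.25 to 0.05; edgeR adjusted p = 0.987). SARS2, the mitochondrial serine enzyme, had 0.16 ± 0.13 (edgeR adjusted p = 0.989), opposite in sign to SARS1. The remaining mitochondrial genes had values near 0: CARS2 0.068, FARS2 0.046, LARS2 0.036, MARS2 0.013, RARS2 0.0036, AARS2 -0.008 and EARS2 -0.066. The median of the 13 genes was 0.081 or 0.023 when 0Q replicate 1 or 3 was left out, and 0.025 or 0.087 when 100Q replicate 1 or 3 was.

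Variation between libraries was largest in the members with the fewest counts. Total counts over the 6 libraries ran from 621 for FARS2 to 23408 for IARS1. The coefficient of variation over the 6 libraries was 3.34% for RARS2, 3.47% for QARS1, 3.85% for IARS2 and 3.87% for IARS1, and it was 22.8% for WARS2, 22.4% for PARS2 and 22.3% for FARS2, the 3 members with the fewest counts. Above these the order did not follow the counts: RARS2 had 1930 counts in all, whereas SARS1, with 12041, varied by 7.88% and EPRS1, with 16096, by 7.5%. FARS2, the phenylalanine enzyme of mitochondria, was at 14.9, 18.6 and 8.85 CPM in 0Q and 15.8, 14.6 and 13.6 CPM in 100Q, with 0Q replicate 3 the lowest of all. The 95% interval of its log2 fold change was -0.48 to 0.58.

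Levels of different genes were compared per kilobase of the canonical transcript. SARS1 was highest, at 145 ± 11.4 CPM per kilobase (SD, 6 libraries), followed by IARS1 at 120 ± 4.63, GARS1 at 110 ± 4.95, QARS1 at 109 ± 3.79 and MARS1 at 98.0 ± 4.24; GARS1 and QARS1 did not differ beyond their spread. The median was 76.8 over cytosolic synthetases, 37.2 over scaffold proteins and 12.7 over mitochondrial synthetases, beside 7.79 over all genes tested. The lowest cytosolic gene was TARS3 at 8.77 ± 1.15, and the lowest members were EARS2 at 6.48 ± 0.574 and PARS2 at 6.17 ± 1.38, which overlapped. IARS2, at 79.7 ± 3.06, ranked ninth among the 33, between TARS1 at 84.1 ± 6.54 and EPRS1 at 76.8 ± 5.76, with no difference beyond the spread. Among scaffold genes EEF1E1 was at 60.3 ± 4.99, AIMP2 at 37.2 ± 2.96 and AIMP1 at 28.9 ± 2.46.

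**Figure D3:**
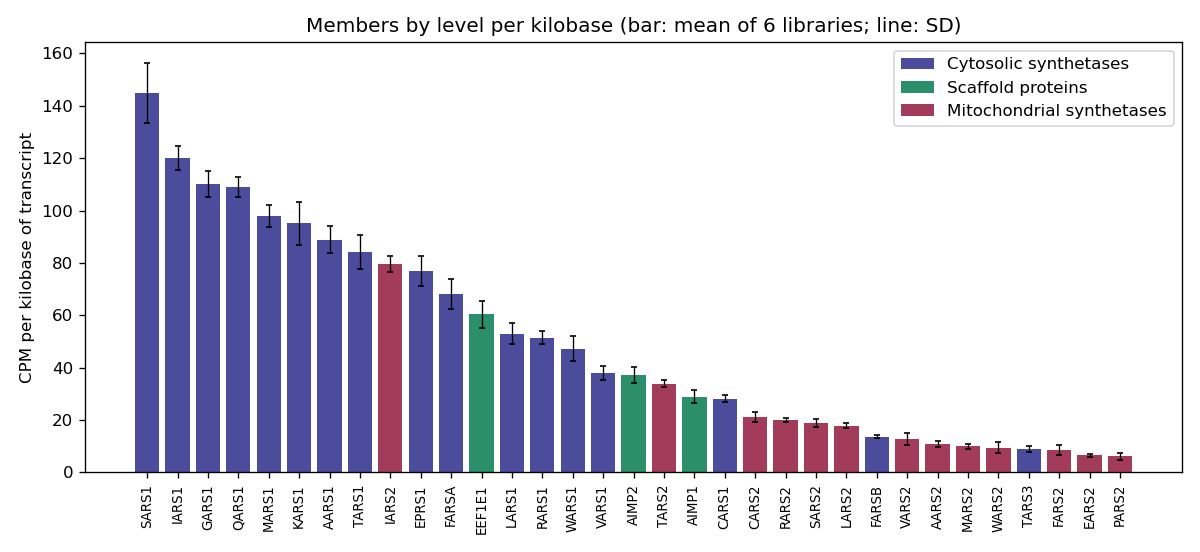
CPM per kilobase of canonical transcript for the 33 members, in falling order, as the mean of 6 libraries with its SD and coloured by list. Cytosolic synthetases fill the upper end, from SARS1 at 145, IARS2 at 79.7 is the highest mitochondrial enzyme, and the 2 lowest members are EARS2 and PARS2.

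For each amino acid served by separate cytosolic and mitochondrial genes, the cytosolic gene had the higher level per kilobase, with TARS1 taken for threonine. TARS3, the other cytosolic-type threonine gene, was not paired. Its level was below that of TARS2, at 8.77 ± 1.15 against 33.9 ± 1.34 CPM per kilobase (SD, 6 libraries). Over 14 pairings (EPRS1 was set against both EARS2 and PARS2, and both chains of the cytosolic phenylalanine enzyme against FARS2) the ratio ran from 1.32 ± 0.0936 for cysteine to 13 ± 3.47 for proline (SD, 6 libraries), with a median of 4.08. Alanine was at 8.37 ± 1.24, methionine at 9.85 ± 1.15, leucine at 2.97 ± 0.278 and isoleucine at 1.5 ± 0.0893. The order depends on the length used: with the union of all exons, 7 of the 10 highest members were shared, and the isoleucine ratio was 0.352 ± 0.0209, so that IARS2 was then above IARS1, while 13 of the 14 ratios stayed above 1.

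The element bound by ATF4 with C/EBP proteins was looked for in the promoters, since it is the known route by which amino acid shortage raises synthetase genes. RefSeq promoter windows (GRCh38.p14, 250 bases before to 50 after each start) were at hand for 28 of the 33 members, all but LARS1, TARS3, VARS1, AARS2 and VARS2. The motif TGATGNAA, read on both strands, was present for 6 of 14 cytosolic synthetases (42.9%), 0 of 3 scaffold genes and 0 of 11 mitochondrial synthetases. It was also present for 2 of 5 synthetases of queuosine tRNAs (40.0%) and 5 of 19 ATF4 targets (26.3%). Over all RefSeq genes it was present for 4.46% of 27305 (3.62% of 35116 windows), and for 2.59% of the 10908 tested here that had a window. The 6 sites are printed 5′ to 3′ on the strand of the gene with 11 bases on each side, the motif in capitals; all 6 carry it on the opposite strand, as TTNCATCA.
AARS1 (chr16:70289675-70289704, minus strand): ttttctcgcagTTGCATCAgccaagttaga
CARS1 (chr11:3057407-3057436, minus strand): cggggcggcggTTGCATCAgattctaggaa
GARS1 (chr7:30594834-30594863, plus strand): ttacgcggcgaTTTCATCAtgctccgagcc
IARS1 (chr9:92293692-92293721, minus strand): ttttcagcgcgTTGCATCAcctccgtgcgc
MARS1 (chr12:57488053-57488082, plus strand): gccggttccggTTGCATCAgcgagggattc
TARS1 (chr5:33440956-33440985, plus strand): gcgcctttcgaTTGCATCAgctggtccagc

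Of these, 5 share the letters TTGCATCA and GARS1 has TTTCATCA. Counted from the RefSeq start used for each window, the motif begins 187 bases before it in AARS1, 33 before it in GARS1 and 2 to 13 before it in CARS1, IARS1 and MARS1, and just after it in TARS1. Genes have several annotated starts, and all 6 sites lie within the span that GENCODE gives the gene. A match of letters is a description and not a measured binding site. The 6 genes with the motif had log2 fold changes from -0.15 (TARS1) to 0.086 (MARS1), with a median of 0.051, and the 8 cytosolic genes with a window and no match ran from -0.18 (SARS1) to 0.047 (QARS1), with a median of -0.069; these 2 ranges overlap and no member of either passed the test.

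Other ATF4 targets gave no call either. Of 24 genes listed for this response, all 24 were tested, 0 passed in edgeR, 17 were above 0 and 7 below, and the median log2 fold change was 0.073. TRIB3, the pseudokinase that feeds back on the response, was at 29.0, 37.1 and 34.9 CPM in 0Q and 43.5, 49.7 and 41.4 CPM in 100Q, without overlap (log2 fold change 0.40 ± 0.14, SE; edgeR adjusted p = 0.987). CHAC1, which degrades glutathione, had 0.55 ± 0.20 (SE; edgeR adjusted p = 0.987) at 18, 15.1 and 17 CPM and then 17.5, 31.1 and 25.3 CPM, where 100Q replicate 1 lay in the range of 0Q. These were the 2 of 24 genes with an unadjusted p under 0.05, both with higher values (0.00971 for TRIB3 and 0.0144 for CHAC1), beside 2.49% of all genes in that direction.

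Synthetases that charge the queuosine tRNAs and the partners of charging were set beside the members. The 8 queuosine tRNA synthetases had a median log2 fold change of 0.0029, 4 on each side of 0, and 0 with an unadjusted p under 0.05 in edgeR; the smallest p values were those of NARS1 (asparagine), with a log2 fold change of 0.15 ± 0.090 and a p of 0.110, and HARS1 (histidine), with 0.13 ± 0.11 and a p of 0.279. Of 15 partners, among them subunits of elongation factor 1, the mitochondrial amidotransferase, editing factors and pyrophosphatases, 0 had an unadjusted p under 0.05, 4 were above 0 and 11 below, and the median was -0.044. GATC, a subunit of the amidotransferase that makes mitochondrial glutaminyl-tRNA, had -0.18 ± 0.11 (SE), with an unadjusted p of 0.108 in edgeR. SEPSECS, which converts phosphoseryl-tRNA for selenocysteine, had 0.38 ± 0.24 (SE), with an unadjusted p of 0.137 in edgeR. The spans of the 3 member lists, from -0.21 to 0.28, cover those of the queuosine tRNA synthetases, from -0.12 to 0.15.

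**Figure D4:**
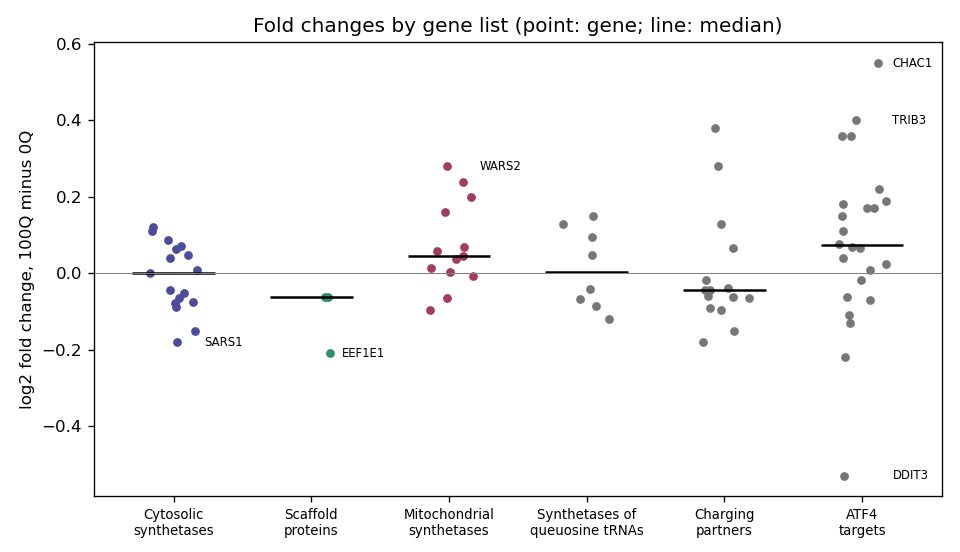
Log2 fold changes (y axis, 100Q minus 0Q) of the genes in 6 lists (the 3 member lists, synthetases of queuosine tRNAs, charging partners and ATF4 targets), with 1 point per gene, horizontal scatter for legibility and a line at the median. Medians of the 3 member lists lie between -0.063 and 0.046, the queuosine tRNA synthetases lie at 0.0029, and of the 6 lists plotted the ATF4 targets spread most widely, from DDIT3 at -0.53 to CHAC1 at 0.55.

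The messages of the synthetases themselves contain the codons read by queuosine tRNAs. Codons for tyrosine, histidine, asparagine and aspartate made up a median of 15.1% of coding codons in cytosolic synthetases, 14.7% in scaffold genes and 13.1% in mitochondrial synthetases, beside 13.8% over 12820 coding genes tested, whose middle range from the lower to the upper quartile was 11.7% to 15.6%. The highest share was in EEF1E1, 20.1% of 174 codons, followed by FARS2 at 18.6% and WARS1 at 17.4%, and the lowest was in VARS2 at 10.5%. Of these codons, the share ending in C was 50.8% at the median in cytosolic and 61.6% in mitochondrial synthetases, beside 55.6% over all coding genes tested. It was lowest in AIMP1 at 29.4% and highest in SARS2 at 86.2%, with SARS1 at 54.5%; messenger RNA levels do not show how these codons were translated.

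Reads shared with neighbouring genes touch some of these values. Exons of 21 of the 33 members share bases with another annotated gene, and 6 members (GARS1, MARS1, AIMP1, AIMP2, CARS2 and VARS2) had fractional counts in at least 1 library. The fractions of AIMP2 and EIF2AK1, the heme-regulated kinase of eIF2 that ends on the opposite strand with 532 shared exon bases, added up to whole numbers (within 0.011 counts) in 6 of 6 libraries. The same held for MARS1 and DDIT3, the stress factor CHOP, in the 4 libraries where MARS1 was fractional, and for GARS1 and its divergent transcript GARS1-DT in 3 of 3. For these reads, counts were thus divided between genes of opposite strands. The shared reads themselves were not counted, and only the total counts of both genes can be compared. The total of the neighbour was small for MARS1 (11890.9 counts against 382.11 of DDIT3). AIMP2 had 1946.76 counts against 8710.24 of EIF2AK1, and its value is less certain.

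DDIT3 had a log2 fold change of -0.53 ± 0.28 (SE; unadjusted p of 0.078 in edgeR), with lower values in all libraries of 100Q, and MARS1 had 0.086. GARS1-DT, with 537.47 counts against 11671 of GARS1, had 0.73 ± 0.29 (SE; unadjusted p of 0.0248 in edgeR), and GARS1 had 0.071. An unadjusted p under 0.05 was found for 4.72% of all genes tested. VARS2 shares 4073 exon bases on the same strand with the noncoding ENSG00000288473, which had 156.28 counts beside 1929.58 of VARS2. WARS2-AS1, opposite to WARS2 with 168 shared bases, had 1424 counts against 1106 of WARS2, a log2 fold change of -0.24 ± 0.15 against 0.28 for WARS2, and no WARS2 count was fractional. EEF1E1 and SARS2 overlap the readthrough genes EEF1E1-BLOC1S5 and ENSG00000269547, both listed with 0 counts.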

How the data were processed

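Per the labels, total RNA was extracted with TRIzol and libraries were made by MSR-seq. The authors deposited a table of estimated counts by Ensembl gene without normalization. FastQC, STAR and RSEM were used, per the submitters' processing notes; hg38 comes from the series design. Tool versions, annotation, strand setting and molecular identifiers: not given in the sources used here. After rounding to whole numbers, counts were tested with edgeR 4.0.16 (quasi-likelihood, TMM, minimum count 10, Benjamini-Hochberg adjustment over all 14905 genes) in R 4.3.3. Intervals come from this fit. Alternatives were DESeq2 1.42.0, limma-voom (limma 3.58.1), other scalings and filters, a replicate block, a GC and length correction and leaving out each library. On simulated data for this comparison (14905 genes) the test recovered 50% of genes changed 1.5-fold and 88% of those changed 2-fold. Of 174 calls, 9 were wrong. The simulation changed 50 genes at each fold, none of them at the lowest levels, with a dispersion set by level alone. Its 174 calls, beside 2 in the data, made the adjusted threshold easier to pass, so these shares are not the recovery to be had in the data. No 2 libraries of a group were copies of each other: their chi-square over genes was 5.36 to 14.2 times its degrees of freedom. Members and lists were chosen with earlier results of these data known. All members are named; values in every library are given for those with an unadjusted p under 0.05, the extremes of each list in level and fold change, KARS1 and GARS1, and, after the values were seen, MARS1, TARS1, TARS2, VARS2 and FARS2. Of the other lists, members with an unadjusted p under 0.05 or the 2 with the smallest p are named. Protein sequences were not used here. Of the line's listed markers, 1 is not reported here.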

Additional observations from a re-analysis of the deposited data

How the results depend on the processing

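No member was called under any of the alternatives run. Genes called over the whole table numbered 2, and 71 with no filter on low counts, 1 with a mean count of at least 50, 11 with DESeq2, 1 with limma-voom, 5 with the GC and length correction, and 0 to 6 as each library was left out. Members with an unadjusted p under 0.05 numbered 1, and 0 to 2 as each library was left out. The median log2 fold change, as each library was left out, ran from -0.035 to 0.017 for cytosolic synthetases, from -0.16 to -0.040 for scaffold proteins and from 0.023 to 0.087 for mitochondrial synthetases. With the replicate number as a block, 3 genes and 0 members were called; same-numbered libraries deviated together with correlations of 0.004, 0.015 and 0.246, so the numbers were not taken as pairs. The replicate block turned WARS1 to -0.00088. Of the 33 members, 19 kept the sign of their fold change under every alternative run and 14, with values between -0.074 (KARS1) and 0.11 (TARS3), did not; the cause was not tested. With no filter, LARS1 was at -0.0011, WARS1 at -0.007 and RARS2 at -0.0051. With the GC and length correction, WARS1 was at -0.0015 and AIMP1 at 0.012. AARS2 was at 0.012 with library size only and 0.0022 with limma-voom, where RARS2 was at -0.015. Leaving out each library gave log2 fold changes of -0.10 to 0.0078 for FARSB, -0.13 to 0.0024 for KARS1, -0.061 to 0.084 for LARS1, -0.01 to 0.21 for TARS3, -0.086 to 0.11 for WARS1, -0.16 to 0.013 for AIMP1, -0.12 to 0.035 for AIMP2, -0.098 to 0.083 for AARS2, -0.025 to 0.13 for CARS2, -0.13 to 0.025 for EARS2, -0.20 to 0.30 for FARS2, -0.0056 to 0.093 for LARS2, -0.045 to 0.11 for MARS2 and -0.026 to 0.051 for RARS2. With 3 libraries per group and 4023956 counts in the shallowest, changes under 1.5-fold would often be missed, and not only in the members with few counts.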
